A study of Mus musculus with 6 samples.

Results

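Neutrophils carry their antimicrobial proteins ready made in granules and reach a wound by following chemokines through receptors on their surface. The 10 genes described here stand for these functions: the calcium-binding alarmins S100a8 and S100a9, the granule proteins Ltf, Ngp and Camp, the receptors Csf3r, Cxcr1, Cxcr2 and Trem1, and the secreted resistin-like protein Retnlg. They were chosen by name, and each probe annotated to one of them was kept if its signal stood above background (detection p-value under 0.01) on at least 1 of 6 bead arrays. Of 17 such probes 13 passed, representing 9 of the 10 genes. Over the whole array 18854 of 45281 probes passed. All 17 are accounted for here. The 4 that did not pass were the 1 probe of Ngp and 1 further probe each of Ltf, Csf3r and Cxcr2.

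Neutrophils are the first leukocytes to enter injured skin, and their number normally declines as new tissue is laid down. Granules are filled in stages as the cell matures in the bone marrow: primary granules hold myeloperoxidase and elastase, secondary granules hold lactoferrin, cathelicidin and neutrophilic granule protein, and the messages for these proteins are largely shut off before the cell is released. Messages for S100a8, S100a9, the chemokine receptors and the receptor of granulocyte colony-stimulating factor persist in circulating neutrophils. S100a8 and S100a9 are also made by stressed keratinocytes and by monocytes, so they do not mark neutrophils alone.

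RNA was taken from whole wounds, 8 days after a full thickness injury of the back skin, of C57/BL6 mice in which β-catenin, the Wnt pathway's transcriptional mediator, was altered after the injury. All mice carried loxP-flanked (flox/flox) alleles of the β-catenin gene, Ctnnb1. The stabilized wound (1 array, 2 months old) came from a mouse with loxP sites around exon 3 given an adenovirus with Cre, and the GFP wound (1 array, 2 months) from the same genotype given an adenovirus with green fluorescent protein. The knockdown wounds (2 arrays, 5 months) came from tamoxifen-treated mice with loxP sites around exons 2 to 6 and the tamoxifen-activated recombinase Cre-Esr1, and the tamoxifen control wounds (2 arrays, 4 months) from mice with the same loxP sites and tamoxifen but no Cre. Age and the presence of Cre therefore went with the knockdown and cannot be told apart from it. The promoter that drives Cre-Esr1, and the cells that the adenovirus reached, are not given in the sources used here. In RNA of a whole wound, fewer neutrophils and less RNA per neutrophil cannot be told apart.

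The number of detected probes ranged from 15883 on the GFP array to 16681 on the stabilized array, with median intensities of 129.4 to 140.9. Mean intensity was also lowest on the GFP array (544.4, where the other 5 had 648.7 to 714.8), and the stabilized wound is therefore set against the 4 tamoxifen-model arrays as well. Over the probes that passed, the stabilized and GFP arrays correlated with r = 0.9507. The knockdown arrays correlated with each other with r = 0.987 and the control arrays with r = 0.9747. Between knockdown and control arrays r was 0.9697 to 0.9782, and between adenovirus and tamoxifen-model arrays 0.9375 to 0.9661. Of 4 Ctnnb1 probes, the brightest read 11.50 (log2) in the stabilized and 11.58 in the GFP wound, 11.74 and 11.86 in the knockdown, and 11.78 and 12.09 in the tamoxifen controls. Where these probes lie within the gene was not analysed here, so they give no check of the deletion. Of 10 marker genes of neutrophils, 7 were detected on all 6 arrays, namely S100a8, S100a9, Csf3r, Cxcr2, Retnlg, Il1r2 and Mmp9, while Mmp8 was not detected and Ly6g and Fpr1 had no named probe here.

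The neutrophil genes were lower in the wound with stabilized β-catenin than in the GFP wound. Knockdown and control did not overlap on 2 of 13 probes, where these groups did not overlap on 42.6% of all probes. Of the 13 probes, 9 were at least 2-fold lower on the stabilized array and 0 at least 2-fold higher, where 5.85% of all tested probes were that much lower and 4.26% that much higher. These 9 probes covered 7 genes: S100a9, Ltf, Csf3r, Cxcr1, Cxcr2, Trem1 and Retnlg. Of the 10 member probes detected on all 6 arrays 9 were at least 2-fold lower, against 3.53% of all probes so detected. The median log2 difference, stabilized minus GFP, was -1.63 over the 13 probes and 0.05 over all probes. The pair has 1 array on each side, so these differences have no replicate check and no test.

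**Figure D1:**
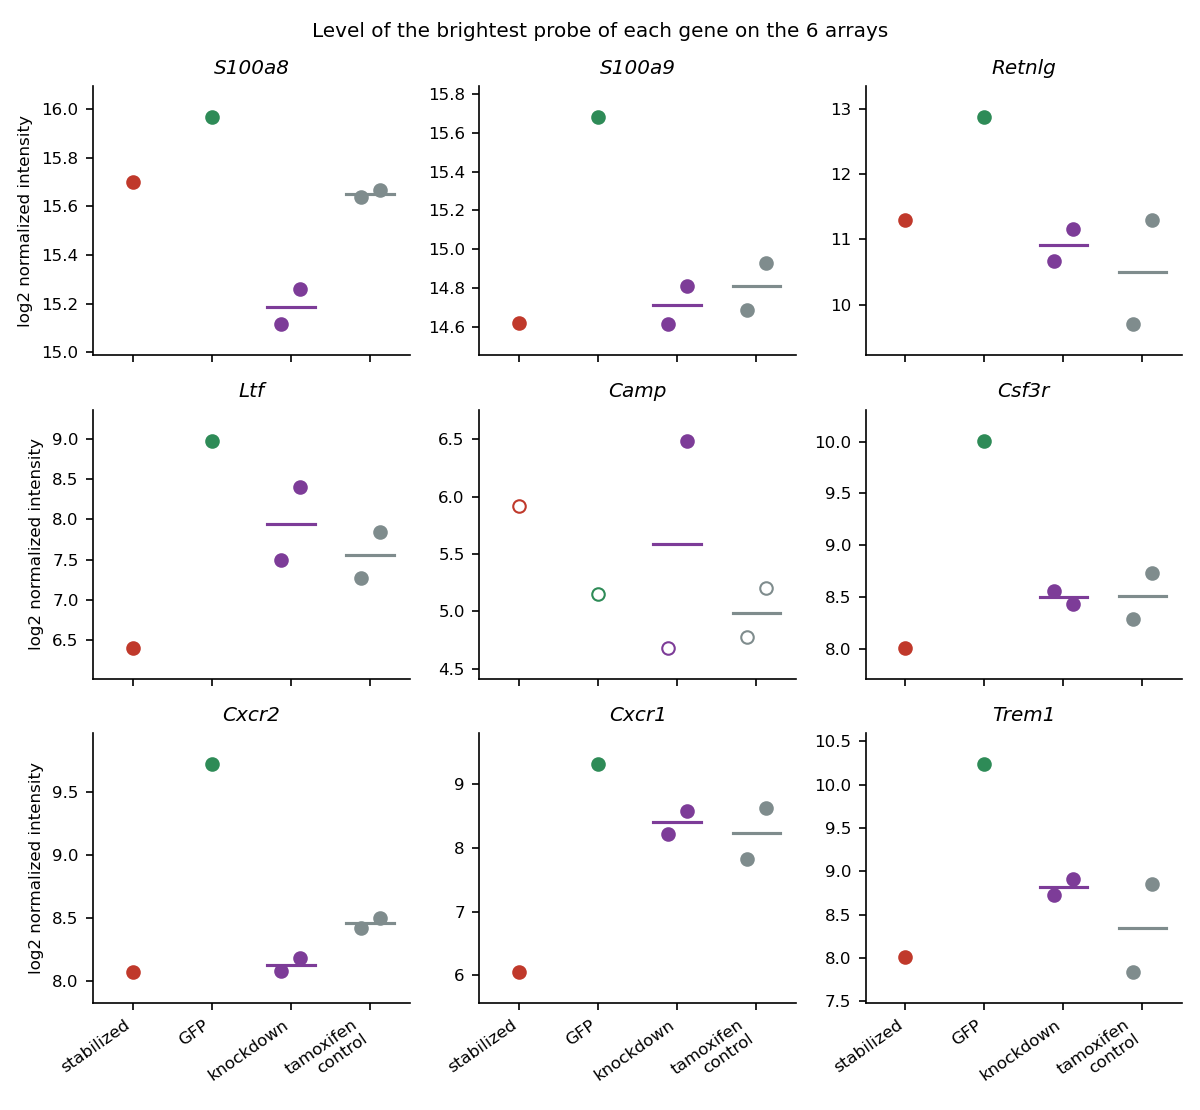
Level of the brightest probe of each of 9 genes on the 6 arrays (y axis, log2 of the normalized intensity; a separate range for each gene). Each point is 1 array, open where the probe was not detected, and a bar marks the mean of 2 arrays. In all genes but Camp the GFP wound is the highest point, while knockdown and tamoxifen control lie apart from each other in S100a8 and Cxcr2.

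The receptor genes and lactoferrin were over 3-fold lower together in the stabilized wound by their brightest probes, and the 250 bases before their annotated start sites are shown for this reason. The order of genes by size depends on the scaling, since with median scaling Cxcr2 was at -1.03 and Retnlg, which is not shown, at -1.10. Sequences and coordinates are those of RefSeq on the mouse assembly GRCm38.p6, read 5′ to 3′ on the gene's strand. Capitals mark matches, on either strand, to the short motifs of 2 transcription factors of the granulocyte lineage, C/EBP (TTGCNNAA, or TTNNGCAA on the other strand) and PU.1 (GAGGAA, or TTCCTC on the other strand).
Cxcr1 (chr1:74194632-74194881, minus strand): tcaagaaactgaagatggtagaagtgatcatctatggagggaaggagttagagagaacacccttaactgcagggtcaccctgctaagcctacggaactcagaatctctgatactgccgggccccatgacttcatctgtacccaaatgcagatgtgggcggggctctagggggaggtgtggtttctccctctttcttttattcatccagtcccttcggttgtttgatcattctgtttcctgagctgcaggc
Ltf (chr9:111019042-111019291, plus strand): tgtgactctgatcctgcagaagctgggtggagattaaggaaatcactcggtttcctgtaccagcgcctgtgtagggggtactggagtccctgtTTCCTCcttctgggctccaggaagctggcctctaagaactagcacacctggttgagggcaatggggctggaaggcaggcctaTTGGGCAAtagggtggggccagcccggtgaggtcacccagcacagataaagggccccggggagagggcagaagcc
Csf3r (chr4:126024409-126024658, plus strand): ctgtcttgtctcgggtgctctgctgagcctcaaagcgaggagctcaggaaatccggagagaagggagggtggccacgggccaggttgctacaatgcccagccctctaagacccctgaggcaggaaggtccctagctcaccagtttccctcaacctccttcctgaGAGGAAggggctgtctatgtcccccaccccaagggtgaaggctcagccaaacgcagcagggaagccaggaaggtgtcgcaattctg
Trem1 (chr17:48232489-48232738, plus strand): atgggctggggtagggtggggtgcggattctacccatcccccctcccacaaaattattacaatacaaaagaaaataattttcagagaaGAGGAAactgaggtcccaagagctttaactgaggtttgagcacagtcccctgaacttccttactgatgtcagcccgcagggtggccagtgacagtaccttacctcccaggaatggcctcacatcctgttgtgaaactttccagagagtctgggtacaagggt
Cxcr2 (chr1:74153744-74153993, plus strand): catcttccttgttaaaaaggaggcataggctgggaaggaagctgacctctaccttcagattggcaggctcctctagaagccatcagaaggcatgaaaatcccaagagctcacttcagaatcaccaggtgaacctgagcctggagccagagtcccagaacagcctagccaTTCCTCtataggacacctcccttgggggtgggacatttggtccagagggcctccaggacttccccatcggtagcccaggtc

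The PU.1 letters began at position -157 before the start of Ltf, at -86 before Csf3r, at -162 before Trem1 and at -81 before Cxcr2, and the C/EBP letters at -75 before Ltf. The window before Cxcr1 held neither motif. Over the 10 genes, 5 windows held the PU.1 letters (S100a8, Ltf, Csf3r, Cxcr2 and Trem1), against 23.3% of 32851 mouse windows of the same length. The C/EBP letters were in 4 windows (S100a9, Ltf, Ngp and Retnlg), against 9.56% of all windows. No match of one motif overlapped a match of the other. A match describes letters only, and was not tied to binding here. Cxcr1 and Cxcr2 are neighbours on chromosome 1 with 0 protein-coding genes between them, as are S100a8 and S100a9 on chromosome 3. On chromosome 9, 8 protein-coding genes lie between Camp and Ngp and 20 between Ngp and Ltf.

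S100a8 and S100a9 form calprotectin, a heterodimer that binds calcium and withholds zinc and manganese from microbes. S100a9 read 14.62 (log2 normalized intensity) in the stabilized wound and 15.68 in the GFP wound, which is 2.09-fold lower. It read 14.61 and 14.81 in the knockdown and 14.69 and 14.93 in the tamoxifen controls. The GFP wound was thus the highest of the 6, while the stabilized wound lay within the range of the tamoxifen-model arrays. Knockdown and control overlapped, with a difference of -0.10 ± 0.17 (SE; limma, adjusted p = 0.876).

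S100a8 read 15.70 in the stabilized wound and 15.97 in the GFP wound, which is 1.21-fold lower, the smallest difference among the 9 genes. It read 15.11 and 15.26 in the knockdown and 15.64 and 15.67 in the tamoxifen controls. Both knockdown wounds lay below both controls, and both adenovirus wounds lay above all 4. The difference between knockdown and control, -0.47 ± 0.14 (SE), exceeded the pooled SD of 0.07, but it did not pass over all probes (limma, adjusted p = 0.393). S100a8 was close to the top of the measuring range, with an intensity equal to 79.1% of the highest signal of the stabilized array, 94.4% of the GFP array, 55.8% and 63.3% of the knockdown arrays, and 81.7% and 79.3% of the control arrays. Before normalization the intensities were 52831 and 62592 in the stabilized and GFP wounds, 37454 and 42081 in the knockdown, and 54866 and 52334 in the controls.

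Lactoferrin, encoded by Ltf, is an iron-binding protein of secondary granules. Its detected probe read 6.41 in the stabilized wound and 8.97 in the GFP wound, a 5.93-fold difference. It read 7.49 and 8.40 in the knockdown and 7.27 and 7.84 in the tamoxifen controls. The stabilized wound was below and the GFP wound above all 4 tamoxifen-model arrays, and knockdown and control overlapped (0.38 ± 0.36, SE; limma, adjusted p = 0.758). The other Ltf probe was not detected on any array.

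The remaining granule proteins gave little signal. Camp, the precursor of the antimicrobial peptide cathelicidin, was detected on 1 array, knockdown replicate 2. It read 5.92 in the stabilized and 5.15 in the GFP wound, 4.68 and 6.49 in the knockdown, and 4.78 and 5.20 in the controls. Neither array of the adenovirus pair detected it, so no fold is given, and the knockdown wounds lay on either side of the controls (0.60 ± 0.60, SE; limma, adjusted p = 0.772), its probe having passed only through knockdown replicate 2. Ngp, whose product is related to the cathelicidins, was not detected on any array, with detection p-values between 0.030 in the stabilized wound and 0.713 in knockdown replicate 1.

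Csf3r, the receptor of granulocyte colony-stimulating factor, was read by 5 probes, of which 2 were detected on all arrays. The brightest read 8.01 in the stabilized and 10.01 in the GFP wound, 8.56 and 8.43 in the knockdown, and 8.29 and 8.73 in the tamoxifen controls. The second read 6.85 and 9.14 in the stabilized and GFP wounds, 7.55 and 7.73 in the knockdown, and 7.51 and 7.78 in the controls. Both probes put the stabilized wound lowest and the GFP wound highest of the 6, by 3.99-fold and 4.87-fold between them. Knockdown and control were nearly level, at -0.02 ± 0.20 and -0.0052 ± 0.17 (SE; limma, adjusted p = 0.986 and 0.996). Another pair of probes was detected in the GFP wound only. The first of these read 5.96 in the stabilized and 6.75 in the GFP wound, and the stabilized level was at least 1.72-fold lower. The other read 5.64 and 6.40, at least 1.35-fold lower. On these dim probes the stabilized wound lay above the 4 tamoxifen-model arrays, which read 5.11 to 5.53 and 5.29 to 5.52, but none of these arrays detected them. The remaining Csf3r probe was not detected.

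Cxcr1 and Cxcr2 encode the receptors through which neutrophils sense chemokines of the CXC class. Cxcr1 read 6.06 in the stabilized wound and 9.30 in the GFP wound, which is 9.47-fold lower and the largest difference among the 13 probes. It read 8.22 and 8.58 in the knockdown and 7.83 and 8.62 in the tamoxifen controls. The stabilized wound thus stood at -2.25 relative to the mean of the tamoxifen-model arrays, and the GFP wound at 0.99. On the stabilized array Cxcr1 was barely above background, with a detection p-value of 0.0085 and the lowest detected signal at 5.97, so the size of the fold depends on the background correction. On intensities with neither correction nor normalization the log2 difference was -1.64.

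Cxcr2 read 8.08 in the stabilized wound and 9.72 in the GFP wound, which is 3.12-fold lower. It read 8.08 and 8.18 in the knockdown and 8.42 and 8.50 in the tamoxifen controls. The GFP wound alone was high, the stabilized wound lay by 0.05 below the knockdown mean, and both knockdown wounds lay below both controls. The difference of -0.33 ± 0.14 (SE) did not pass (limma, adjusted p = 0.526), and that of Cxcr1, 0.17 ± 0.31 with overlapping groups, did not either (adjusted p = 0.876). A second Cxcr2 probe was not detected.

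Trem1 encodes a receptor that amplifies inflammatory signalling in neutrophils and monocytes. Its brightest probe read 8.01 in the stabilized and 10.23 in the GFP wound, 8.72 and 8.91 in the knockdown, and 7.84 and 8.86 in the tamoxifen controls. Its other probe read 7.33 and 8.96 in the stabilized and GFP wounds, 6.41 and 6.66 in the knockdown, and 6.38 and 6.78 in the controls. Both probes were lower in the stabilized than in the GFP wound, by 4.68-fold and 3.10-fold. They disagreed on where the stabilized wound stood, within the tamoxifen-model arrays by the first and 0.78 above their mean by the second. Neither separated knockdown from control, at 0.47 ± 0.35 and -0.05 ± 0.20 (SE; limma, adjusted p = 0.705 and 0.954).

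Retnlg encodes a secreted protein of the resistin family that in mice is abundant in neutrophils. It read 11.30 in the stabilized wound and 12.87 in the GFP wound, which is 2.97-fold lower. It read 10.68 and 11.16 in the knockdown and 9.70 and 11.29 in the tamoxifen controls. Control replicate 1 was the lowest of the 6 arrays and control replicate 2 exceeded both knockdown arrays, so the knockdown difference of 0.42 ± 0.54 (SE) was within the spread (limma, adjusted p = 0.820). The stabilized wound lay just above the higher control.

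Ordered by level, the GFP wound was first on 12 of the 13 probes, with a gap to the next group above the pooled SD of the tamoxifen groups. The share of all probes with such a gap was not counted. On the same 12 probes the GFP wound was above all 4 tamoxifen-model arrays, as on 26.4% of all probes. The dim Csf3r pair had passed only through the GFP array, which had to be high there. Among the 10 member probes detected on all arrays the GFP wound was above all 4 on 10, against 25.9% of all probes so detected. Camp had no gap between neighbouring groups above that SD. The stabilized wound was below all 4 on 5 probes (30.1% of all probes), namely Ltf, Cxcr1, Cxcr2 and the brighter Csf3r pair. It was above all 4 on 5 probes (31% of all probes), namely S100a8, Retnlg, the second Trem1 probe and the dim Csf3r pair, and within their range on 3. Cxcr2 (8.076 against 8.079 in knockdown replicate 1) and Retnlg (11.300 against 11.292 in control replicate 2) lay at the edge of that range. The count below was 6 on the authors' deposited log2 values, and the count above was 4 with arrays scaled to their medians. Over the 10 probes detected on all arrays, the median log2 difference from the tamoxifen-model mean was -0.36 for the stabilized wound and 1.46 for the GFP wound, against 0.02 and -0.03 over all probes so detected. The GFP wound was farther from that mean than the stabilized wound on 8 of the 10, and the stabilized wound farther on 2, Cxcr1 (-2.25 against 0.99) and Ltf (-1.35 against 1.22). Fewer probes were detected on the GFP array than on each of the other arrays. Virus, drug, alleles and age differ between the models, so these values set the arrays side by side and do not test a cause.

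**Figure D2:**
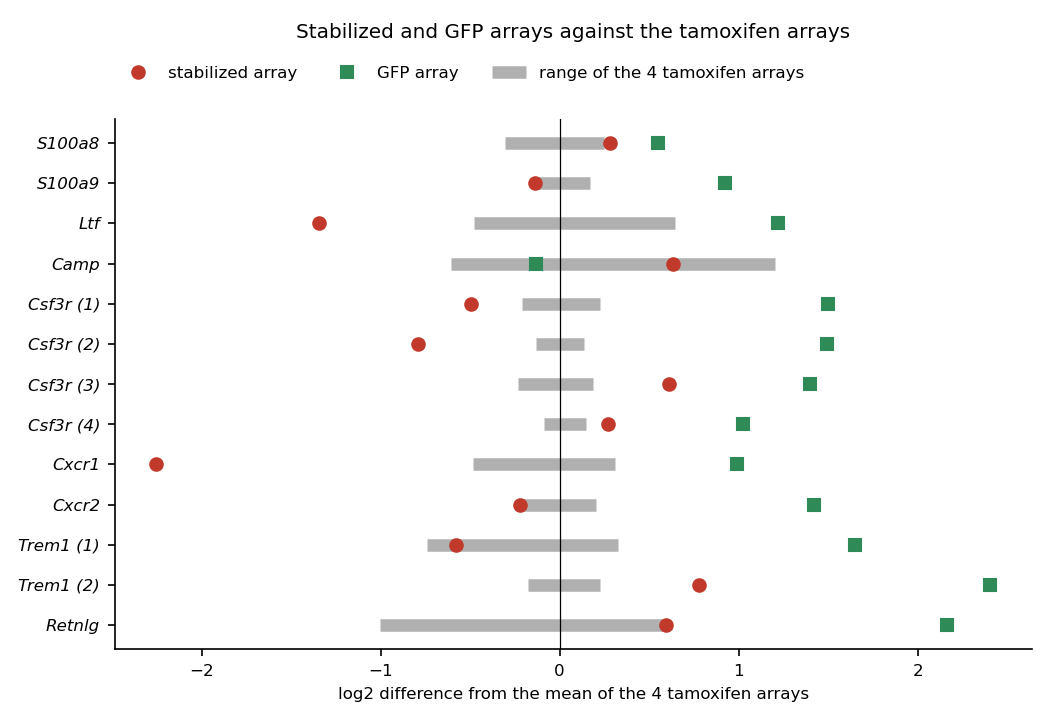
Position of the stabilized array (red circles) and the GFP array (green squares) relative to the mean of the 4 tamoxifen-model arrays (x axis, log2 difference), for 13 probes of 9 genes. Grey bars span the 4 tamoxifen-model arrays, and numbers in parentheses count the probes of a gene from the brightest. The GFP array is to the right of the bar for 12 probes, the stabilized array to the left of it for 5, to the right for 5 and within it for 3.

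Scaling altered the size of the difference in the pair. With each array scaled to its median in place of quantile normalization, the median of all probes shifted to 0.55, and 19.8% of the calls of at least 2-fold over all probes were lower in the stabilized wound, against 57.9% with quantile normalization. The neutrophil probes then had a median of -1.04, which is -1.59 relative to that shift, with 8 of 13 at least 2-fold lower (S100a9 was at -0.91), against 3.72% of all probes. On intensities with neither correction nor normalization 5 of 13 were, where 1.27% of all probes were, with a median of -0.82, or -1.23 relative to all probes at 0.41. The sign stayed negative for 12 of the 13 probes under each of these settings. Among these 12 were the dim Csf3r probes, which had passed only through the GFP array and had to be high there.

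In the knockdown, 0 of the 13 probes passed an adjusted p of 0.05, as did 0% of all 18854 (limma, smallest adjusted p = 0.220). Without adjustment 1 probe, S100a8, had a p under 0.05 and was lower, where 10.3% of all probes had such a p and 4.81% had it and were lower. Knockdown was higher on 6 probes and lower on 7, with a median log2 difference of -0.0052, against -0.00054 over all probes. Both knockdown wounds lay below both controls on 2 probes, S100a8 and Cxcr2, and above both on 0, where 20.4% and 22.2% of all probes did, so the groups did not overlap on 2 of 13 probes, against 42.6% of all probes. The neutrophil genes were thus no further apart than probes in general. Over the 10 probes detected on all arrays, differences ranged from -0.47 for S100a8 to 0.47 for the brightest Trem1 probe. Those of S100a9, the second Trem1 probe and the brighter Csf3r pair, all within 0.10 of 0, turned to positive values of 0.0050 to 0.056 when arrays were scaled to their medians. With 2 arrays against 2, an exact permutation cannot give a two-sided p below 0.333.

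**Figure D3:**
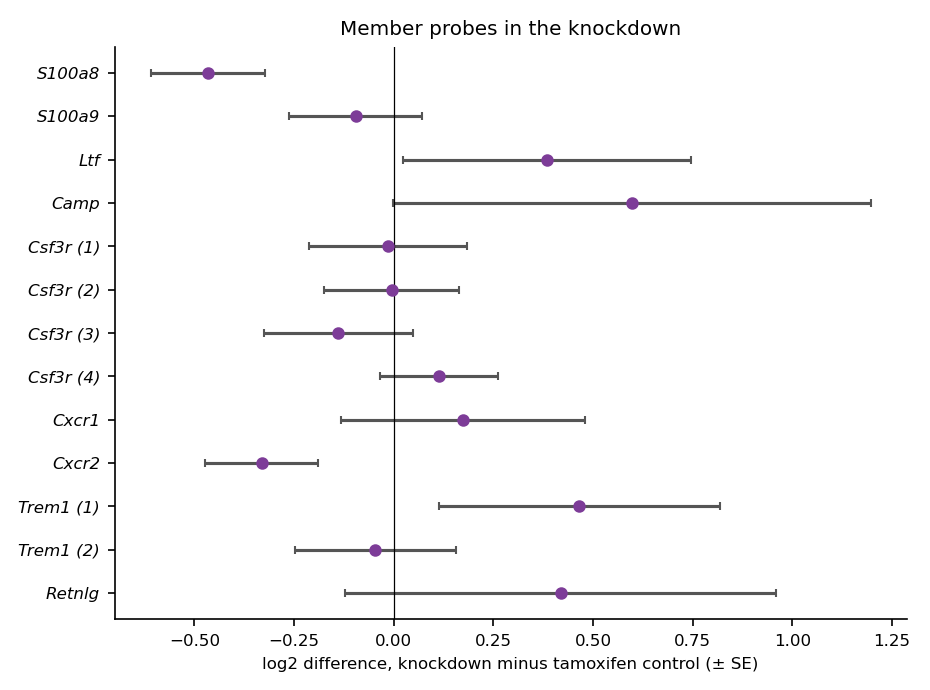
Difference between knockdown and tamoxifen control for 13 probes of 9 genes (x axis, log2, knockdown minus control). Points are differences of means of 2 arrays each and bars are ± SE from limma. S100a8 at -0.47 and Cxcr2 at -0.33 lie to the left of 0 by more than 1 SE, the brightest Trem1 probe at 0.47 and Ltf at 0.38 to the right of it by more than 1 SE, and 0 probes pass the adjusted threshold.

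Several lists of markers of other cell types differed between knockdown and control, at an unadjusted p only. Of 11 measured markers of wound edge keratinocytes, 8 were lower at an unadjusted p under 0.05 (limma) and 0 passed the adjusted threshold. Over all probes 10.3% had such a p in either direction, and 4.81% had it and were lower. Wound edge keratinocytes can make S100a8 and S100a9, and their marker Stfa1 is also in the granule list. Krt6a, a keratin of activated epidermis, read 8.73 and 8.68 in the knockdown and 10.61 and 10.12 in the controls. The summed normalized intensity of the list was 226569 and 212251 in the knockdown and 329372 and 282909 in the controls. Skeletal muscle markers ran the other way, with 7 of 8 higher at an unadjusted p under 0.05 and sums of 74087 and 102354 in the knockdown, against 30291 and 44881 in the controls. T and B cell markers were higher at that level in 4 of 4 cases, summing to 1179 and 1249 in the knockdown and 578.4 and 578.4 in the controls, and mast cell markers in 4 of 5, summing to 2995 and 3223, against 1975 and 2075 in the controls. The part of these cells in the S100a8 and Cxcr2 values was not tested.

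Other receptors and surface proteins of neutrophils were mostly lower in the stabilized wound too. Of 14 listed, 10 were measured by their brightest probe, and 6 were at least 2-fold lower in the stabilized wound and 0 higher, with a median of -1.43. With arrays scaled to their medians these counts were 5 and 1, with a median of -1.48 relative to all probes. The Mas-related receptor Mrgpra2b read 9.08 in the stabilized and 11.95 in the GFP wound, which is 7.28-fold lower. Il1r2, the decoy receptor of interleukin-1, read 9.46 and 11.96, 5.69-fold lower, and the lectin Clec4e read 8.87 and 10.76, 3.71-fold lower. The GFP wound exceeded all tamoxifen-model arrays for 9 of the 10. In the knockdown 0 passed, and Clec4e alone had an unadjusted p under 0.05, at -0.43 ± 0.14 (SE; limma, adjusted p = 0.404).

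The rest of the granule was mixed. Among primary granule proteins, 3 of 6 were measured, and 0 were 2-fold apart in the pair. Myeloperoxidase, Mpo, read 7.36 in both the stabilized and the GFP wound, 6.90 and 6.82 in the knockdown, and 6.24 and 6.41 in the controls, a knockdown difference of 0.54 ± 0.15 (SE; limma, adjusted p = 0.347). The serine proteases Prtn3 and Elane were detected in the stabilized but not in the GFP wound. Prtn3 was at least 1.20-fold higher in the stabilized wound. Elane had passed only through the stabilized array, with a detection p-value of 0.0096 there, and read 5.98 against 5.81 in the GFP wound. Among other secondary and tertiary granule proteins, 12 of 16 were measured, 4 at least 2-fold lower and 1 higher in the stabilized wound, with a median of -0.24. Scaled to array medians, 1 was lower and 1 higher, with a median of -0.75 relative to all probes. The siderophore-binding lipocalin Lcn2 read 9.81 in the stabilized and 11.77 in the GFP wound, 3.89-fold lower. The stefin Stfa2l1 was 2.75-fold and the chitinase-like protein Chil3 2.65-fold lower. The gene that was at least 2-fold higher was Itgam, by 2.02-fold. Mmp9 was nearly level, at 11.81 in the stabilized and 11.66 in the GFP wound. Stfa2l1 was also lower in the knockdown, by -0.95 ± 0.18 (SE; limma, adjusted p = 0.225), and Stfa2 by -0.88 ± 0.26 (adjusted p = 0.380). Lcn2 and stefins are made by keratinocytes as well.

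Chemokines and growth factors that draw or sustain neutrophils did not move together. Of 12 listed, 9 were measured, 2 at least 2-fold lower and 0 higher in the stabilized wound, with a median of 0.07. The CXC chemokine Cxcl2, a ligand of Cxcr2 that neutrophils also make, read 12.51 in the stabilized and 14.72 in the GFP wound, 4.63-fold lower, and Il1b was 2.56-fold lower. Il6 was 1.72-fold higher. In the knockdown Cxcl1, another ligand of Cxcr2, read 11.20 and 11.30, against 11.99 and 11.86 in the controls (-0.67 ± 0.15, SE; limma, adjusted p = 0.259), and Il1a was at -1.08 ± 0.28 (adjusted p = 0.324).

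The relatives of single members showed the following values. Of the Trem family and its adaptors, 5 of 7 were measured, and Trem3, a receptor of this family in mice, read 7.90 in the stabilized and 10.36 in the GFP wound, 5.48-fold lower. The signalling adaptors Hcst and Tyrobp were 2.08-fold and 1.93-fold lower, and Trem2, a receptor of macrophages, differed by 0.09. The knockdown was higher for all 5, with Hcst at 0.47 ± 0.15 (SE; limma, adjusted p = 0.410). The S100 relatives and S100a8/S100a9 receptors (7 of 9 measured) had 0 genes 2-fold apart in the pair. Their largest differences were in the receptor Ager (detected in the GFP wound only, at least 1.45-fold lower in the stabilized wound), S100a4 (-0.65) and S100a13 (-0.49). Of the resistin family, Retnla, a product of alternatively activated macrophages and other cells, ran opposite to Retnlg in the pair, at 11.06 in the stabilized and 8.85 in the GFP wound, but spread over 8.75 and 11.02 in the knockdown and 11.37 and 10.03 in the controls. Granulocyte transcription factors (8 of 8 measured) had a median of -0.33, or -0.38 relative to all probes, with 0 at least 2-fold lower. When arrays were scaled to their medians the list median was 0.28, or -0.28 relative to all probes, again with 0 at least 2-fold lower. The repressor Gfi1 was detected in the GFP wound only and was at least 1.30-fold lower in the stabilized wound, Cebpb was at -0.57, and Runx1 was 2.05-fold higher in the stabilized wound.

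**Figure D4:**
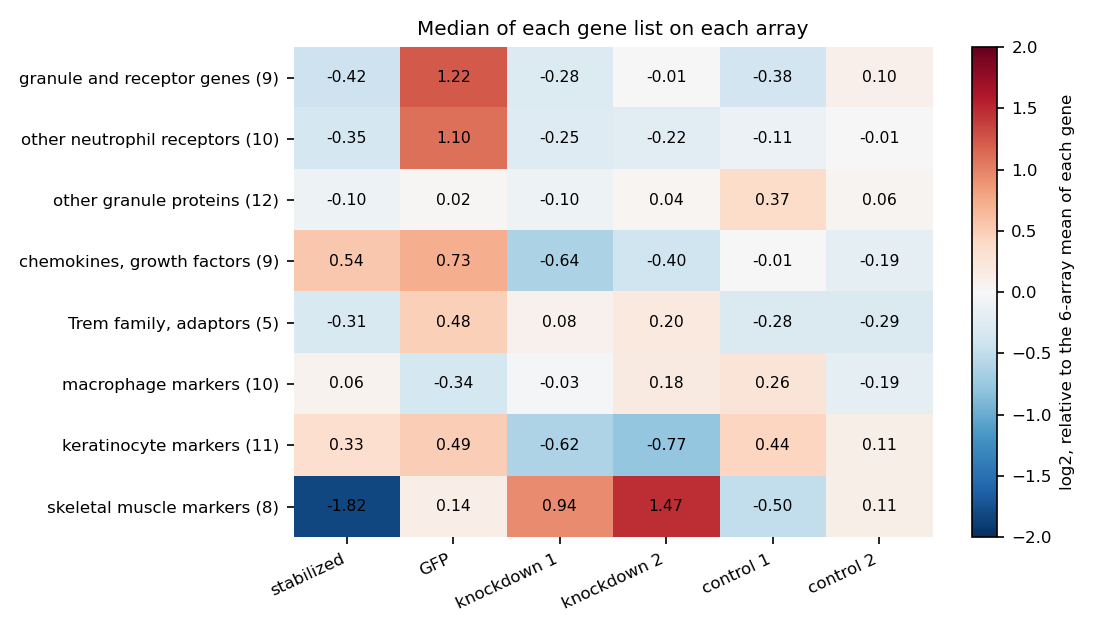
Median of each gene list on each array (colour and number, log2 relative to each gene's mean over the 6 arrays; 1 brightest probe per gene, number of genes in parentheses). The neutrophil granule and receptor genes and the other neutrophil receptors are highest on the GFP array, at 1.22 and 1.10, while keratinocyte markers are lowest on the knockdown arrays (-0.62 and -0.77) and muscle markers on the stabilized array (-1.82).

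Markers of other cells in the pair are given beside these values, as summed normalized intensities. Skeletal muscle markers, also at least 2-fold lower in 7 of 8 cases, summed to 12286 in the stabilized and 46356 in the GFP wound. Keratinocyte markers (0 of 11 at least 2-fold apart) summed to 334237 and 309038, and macrophage markers (1 of 10 lower, 2 higher) to 44770 and 41812. The macrophage marker that was lower, Cd14, is a lipopolysaccharide co-receptor that neutrophils carry as well, whereas Cd163 and Mrc1 were 2.52-fold and 2.34-fold higher in the stabilized wound. Fibroblast markers summed to 128070 in the stabilized and 91201 in the GFP wound, mast cell markers to 1949 and 1367, T and B cell markers to 937.4 and 1256, and red cell and platelet markers to 17816 and 28333. Of 5 eosinophil markers Prg2 alone was detected, on 2 arrays. With arrays scaled to their medians, 2 of 11 keratinocyte, 4 of 10 macrophage and 4 of 5 mast cell markers were at least 2-fold higher in the stabilized wound. At that scaling 2846 of all 18854 probes were that much higher, and the median of all probes was 0.55. Relative to it, the list medians were -0.16 for keratinocyte, 0.42 for macrophage and 0.58 for mast cell markers. The part of these cells in the neutrophil values was not tested.

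Across the 6 arrays, Camp and S100a8 stood apart from the other members. The Pearson r with the mean of the other members' brightest probes was -0.07 for Camp and 0.39 for S100a8. The same r was 0.96 for Trem1, 0.95 for S100a9, 0.92 for Csf3r, 0.88 for Ltf, 0.84 for Cxcr2, 0.78 for Retnlg and 0.67 for Cxcr1. These are descriptions over 6 arrays that share one normalization, and the GFP array is the high point of each of these 7 genes. Among 2740 other genes with a range of at least 1 (log2), those closest to the members' mean profile were Nampt, an enzyme of NAD synthesis (r = 0.99), and then, each with r = 0.98, the urokinase receptor Plaur, the lipase inhibitor G0s2, Mrgpra2b, the cytokine Il15, the nuclear protein Csrnp1, the leukotriene B4-degrading enzyme Cyp4f18 and the transcription factor Nfatc2. Of these, G0s2 read 9.92 in the stabilized and 12.55 in the GFP wound, 10.73 and 11.50 in the knockdown, and 10.20 and 11.05 in the controls. Plaur was 3.48-fold, Csrnp1 3.93-fold, Cyp4f18 3.47-fold, Il15 2.82-fold and Nampt 2.16-fold lower in the stabilized than in the GFP wound. The neighbours were picked for following the members' mean profile, which was 1.02 on the GFP and -0.52 on the stabilized array. Their lower values in the stabilized wound therefore came with the choice and are no separate result. Nfatc2 was detected in the GFP wound only and was at least 1.36-fold lower. Its probe had passed only through the GFP array, which had to be high there.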

How the data were processed

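RNA of 6 wounds was extracted with a Qiagen kit, labelled with biotin and hybridised to Illumina single-colour bead arrays, 1 per wound, per the labels' protocols. The authors' deposited probe table gives each probe's intensity on a linear scale, not normalized, and a detection p-value, per the file headers. A second deposited table holds the authors' log2 values, which ranked the probes of each array as the intensities did (Spearman correlation 1) and differed from the values computed here by at most 0.101. The submitters' processing notes name R 2.14 and limma, without settings. Bead summarization, slide and scan day are not given in the sources used here, so no batch was tested.

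Intensities were background-corrected with the detection p-values, offset by 16, log2-transformed and quantile-normalized over the 6 arrays (neqc, limma 3.58.1 in R 4.3.3). The offset shrinks differences of dim probes, and quantile normalization removes a change shared by most probes. Probes with a detection p-value under 0.01 on at least 1 array were fitted one by one with lmFit and eBayes over 4 group means, two-sided, with Benjamini-Hochberg adjustment over 18854 probes. The fit had 2 residual and 3.05 prior degrees of freedom, all from the tamoxifen groups. The labels call the samples biological replicates without naming animals, so p-values measure the spread between these samples. Stabilized and GFP wounds were compared without a test, at a size of 2-fold. Where a probe was not detected in the dimmer wound, an "at least" fold divides the brighter level by the probe's own level or by the dim array's lowest signal among detected probes, whichever is higher. The number of arrays limits the precision. The steps were tested on simulated data.

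Probes were named from the platform annotation (34885 with 1 gene, 18 with several, 10378 not listed there), with symbols updated by Entrez number through RefSeq (GRCm38.p6, 34807 matched), and 2 lines without values were left out. Every passing member probe is named. Of other lists the 3 genes with the largest difference in the pair were named, and of neighbours the 8 with the highest r. Cxcl1, Il1a, Itgam, Mmp9, Stfa2 and Trem2 lie outside this rule and were chosen after their values were seen. Members and lists were chosen with earlier results of these data known. Alternatives covered background, scaling, offset, detection filter, probe choice, samples fitted and single arrays left out.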

Additional observations from a re-analysis of the deposited data

How the results depend on the processing

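The count of 0 member probes past the threshold in the knockdown held in all 16 alternatives (limma, smallest adjusted p 0.179 to 0.873, 0 to 2 at an unadjusted p under 0.05), although without control replicate 1 57 of all probes passed. The median knockdown difference, near 0, changed sign between settings and stayed between -0.22 and 0.17, and leaving out 1 array gave -0.22 to 0.16. In the pair the count at least 2-fold lower was 7 to 9 in 9 alternatives (7 of 9 with 1 probe per gene), and 5 on intensities with neither background correction nor normalization, a setting chosen after seeing the data. The median of -1.63 was -1.30 without background correction, -1.04 with median scaling, -1.06 with no detection filter, and -0.82 on the unprocessed intensities, and -1.53 to -1.82 otherwise. The share of at least 2-fold calls over all probes that were lower was 57.9%, against 74.8% without background correction, 69.0% at an offset of 50, 50.4% at an offset of 1, 19.8% with median scaling and 17.6% on the unprocessed intensities. Of 123 pair values of single probes, which include the dim Csf3r probes that passed only through the GFP array, 0 changed sign. Of 201 knockdown values of single probes 22 did, and 0 passed. Median scaling turned the brighter Csf3r pair to 0.056 and 0.055, S100a9 to 0.025 and the second Trem1 probe to 0.0050, and the unprocessed intensities gave 0.032, 0.030 and 0.010 for the Csf3r pair and S100a9. Leaving out 1 array gave ranges that cross 0: -0.24 to 0.20 and -0.14 to 0.13 for the brighter Csf3r pair, -0.30 to 0.027 for a dim Csf3r probe, -0.22 to 0.024 for S100a9, -0.31 to 1.5 for Camp, -0.22 to 0.57 for Cxcr1, -0.066 to 0.84 for Ltf, -0.38 to 1.21 for Retnlg, and -0.042 to 0.97 and -0.25 to 0.16 for the Trem1 probes. These values rest on single arrays, and the cause was not tested. With replicate number as a block (replicate block), 0 member probes passed (smallest adjusted p 0.343) and the median was -0.0052. The numbers were not taken as pairs, since there are only 2 of them and no label ties same-numbered wounds; their deviations correlated at 0.066 over all probes and 0.204 over the 13 member probes. Signal over background limits Camp, Ngp, the dim Csf3r probes and, on the stabilized array, Cxcr1 and Ltf.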
